A study of Rattus norvegicus with 10 samples.

Results

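A group of 37 genes stood at least 2 times higher in each of 2 hippocampal libraries than in any of the other 8, and genes of the choroid plexus led it. The 37 are those of 13670 measured gene symbols (0.271%) that reached at least 1 CPM (counts per 1000000 counts of the library) in BT-11 library 3 and in untreated library 4, each at least 2 times the highest CPM among the other 8 libraries. Symbols starting Kcn, Col or Lam were left out, which removed 4 that met the levels (Kcne2, Kcnj13, Col8a1 and Lama3). The genes were thus chosen by their CPM in these 10 libraries, so the contrast of both libraries with the other 8 is described here and not tested.

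The libraries are mRNA sequencing of left hippocampi from female rats of the TgF344-AD line (10 in all), taken at 11 months of age after perfusion with cold saline. One group of 5 rats had eaten chow with BT-11, an orally active compound known to bind the protein LANCL2, for 6 months from the age of 5 months. The other group of 5 rats had eaten ordinary chow. Every animal of both groups carries the Alzheimer transgenes of this Fischer line, which are known to be driven by the mouse prion promoter. Each library is 1 rat, and the counts summed to between 13721673 and 19700443 per library. BT-11 library 3 had 14456731 counts and untreated library 4 had 15483077.

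The choroid plexus is a folded secretory epithelium that hangs in the ventricles of the brain, over a core of leaky vessels and stroma, and makes cerebrospinal fluid. Its epithelial cells are joined by tight junctions, move ions and water from blood to fluid, and secrete carriers and growth factors, with transthyretin as their best-known product. The lateral ventricle with its plexus lies beside the hippocampus, and ventricle walls are lined by ependyma, a layer of cells with motile cilia.

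Of 14 markers of choroid plexus epithelium, 13 were among the 37 genes, and Calml4 was the exception. Except for Aqp1, Slc4a5 and Cldn2, the markers belong to a longer list of choroid plexus identity, chosen with earlier results of these data known. In that list 19 of 39 measured genes were members, and both counts are a description and not a test. Of the others, Perp was at 16.5 and 15.6 CPM in BT-11 library 3 and untreated library 4, against 15.2 to 23.1 CPM, and Ecrg4 at 2.56 and 2.52 CPM, against 1.08 to 5.10 CPM. Summed over the 14, the level was 1928 CPM in BT-11 library 3 and 1812 CPM in untreated library 4, while the remaining 8 ran from 85.0 to 245.7 CPM. Without Ttr the other 13 summed to 668.3 and 764.3 CPM in BT-11 library 3 and untreated library 4, against 81.2 to 164.0 CPM. Most of this sum was Enpp2, which had a clear level in every library. Enpp2 measured 418.5 and 439.6 CPM in that order, against 69.9 to 135.2 CPM in the other 8. The 37 genes together made up 0.227% of the counts of BT-11 library 3 and 0.217% of those of untreated library 4, against 0.0130% to 0.0324% in the other 8. In bulk tissue, fewer cells of a type and less RNA per cell cannot be told apart. The markers of hippocampal neurons, 4 in number, summed to 2859.5 CPM in BT-11 library 3 and 2916 CPM in untreated library 4, within the 2616 to 3515 CPM of the other 8.

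**Figure D1:**
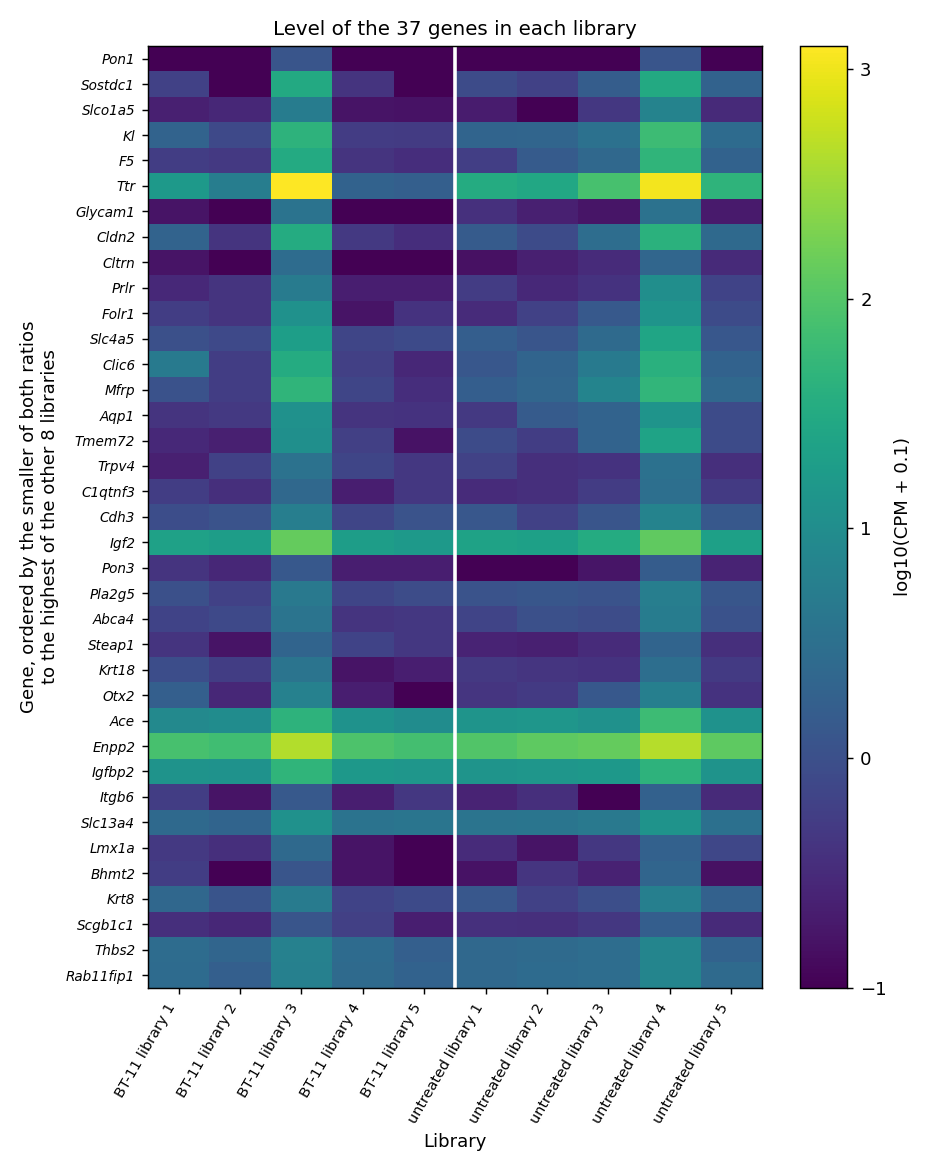
Level of each of the 37 genes (rows, ordered by the smaller of its 2 ratios to the highest of the other 8 libraries, largest at the top) in each of the 10 libraries (columns, BT-11 left of the white line, untreated right of it), as log10(CPM + 0.1). BT-11 library 3 and untreated library 4 form bright columns, and Ttr is the brightest row, at 1260 and 1048 CPM there.

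Ttr, the thyroxine and retinol carrier transthyretin, was the most abundant of the 37 by far. It measured 1260 CPM in BT-11 library 3 and 1048 CPM in untreated library 4. Elsewhere it measured 16.2, 5.35, 1.85 and 1.63 CPM in BT-11 libraries 1, 2, 4 and 5, and 33.5, 28.4, 81.6 and 46.1 CPM in untreated libraries 1, 2, 3 and 5. Scaled by transcript length to TPM (CPM per transcript length, rescaled to the same total in each library), Ttr was the gene of rank 11 in each of both libraries, with 3961 TPM in BT-11 library 3 and 3452 in untreated library 4. Its best rank among the other 8 libraries was 633, in untreated library 3, and its worst was 9905. Ttr alone gave 55.6% of the summed CPM of the 37 genes in BT-11 library 3 and 48.2% in untreated library 4, against 1.20% to 25.2% elsewhere. In rn6 the deposited Ttr row (chromosome 18, 15532964 to 15540178, minus strand) lies within the span of Mapre2 on the plus strand, and no source used here says whether strand was used in counting. The other 36 genes overlap no other symbol of the table.

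Besides Ttr, several secreted products and surface proteins of choroid epithelium were near 0 in most libraries. Sostdc1, a secreted antagonist of BMP and Wnt signals (chromosome 6, 55812820 to 55816995, rn6 as for all gene positions here), measured 30.4 CPM in BT-11 library 3 and 30.5 CPM in untreated library 4, while the remaining 8 ran from 0 to 1.83 CPM. Its smaller ratio to the highest of these, 16.7, was the largest of the 37 among genes with any count there. Kl, the ageing-linked co-receptor klotho (chromosome 12, 942974 to 987207), measured 45 and 65.6 CPM in BT-11 library 3 and untreated library 4, against 0.423 to 3.28 CPM. F5, coagulation factor V (chromosome 13, 82479997 to 82535538), stood at 31.5 and 47.9 CPM in the same order, against 0.242 to 2.33 CPM. Folr1, the folate receptor that carries folate into the fluid (chromosome 1, 166934457 to 166945846), had 11.6 and 13.3 CPM, against 0.0618 to 1.31 CPM. Each of these 4 genes was low in all of the other 8 libraries.

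Transporters and channels of the group followed the same order. Slc4a5, a bicarbonate cotransporter of the choroid membrane, measured 19.9 CPM in BT-11 library 3 and 25.4 CPM in untreated library 4, while the remaining 8 ran from 0.618 to 2.48 CPM. Aqp1, the water channel of the fluid-facing surface, measured 11.6 and 13 CPM, against 0.302 to 1.89 CPM. Clic6, a chloride channel family protein, measured 33.5 and 40.0 CPM, against 0.181 to 4.88 CPM, with BT-11 library 1 at 4.75 CPM. Slco1a5, an organic anion transporter with close paralogs, so that its read assignment is uncertain, measured 5.12 and 6.65 CPM, against 0 to 0.364 CPM. Trpv4, an osmosensitive cation channel, was low at 3.39 and 3.29 CPM, against 0.128 to 0.618 CPM. Slc13a4, a sulfate transporter, had a level of its own in every library and measured 11.9 and 12.5 CPM, against 1.97 to 4.37 CPM.

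Cldn2, the claudin of leaky, fluid-transporting tight junctions, measured 33.0 CPM in BT-11 library 3 and 41.2 CPM in untreated library 4, while the remaining 8 ran from 0.242 to 2.84 CPM. The other genes of epithelial structure were lower. Krt8 and Krt18, the paired keratins of simple epithelia, measured 5.05 and 3.67 CPM in BT-11 library 3 and 5.81 and 2.97 CPM in untreated library 4, against highest values elsewhere of 2.25 and 0.835 CPM. Both of those highest values came from BT-11 library 1. Cdh3, P-cadherin, measured 5.67 and 6.72 CPM, against 0.519 to 1.27 CPM.

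Among growth factors, hormone-related genes and secreted enzymes, Enpp2, Igf2, Igfbp2 and Ace had a clear level in every library. Enpp2, autotaxin, which makes lysophosphatidic acid and is also expressed by oligodendrocytes (chromosome 7, 94479931 to 94563087), measured 418.5 CPM in BT-11 library 3 and 439.6 CPM in untreated library 4. Its other values were 80.5, 69.9, 88.9 and 73.5 CPM in BT-11 libraries 1, 2, 4 and 5 and 95.3, 119.8, 135.2 and 122.3 CPM in untreated libraries 1, 2, 3 and 5. Igf2, the insulin-like growth factor of meninges and choroid plexus, measured 134.2 and 127.2 CPM in BT-11 library 3 and untreated library 4, against 16.1 to 32.6 CPM. Igfbp2, a binding protein for such factors, measured 48.2 and 45.4 CPM, against 12.2 to 15.5 CPM. Ace, angiotensin-converting enzyme, measured 45 and 63.5 CPM, against 8.28 to 14.0 CPM. Kl and F5, described above, were low elsewhere, as was Prlr, the prolactin receptor, with 5.05 and 10.7 CPM against 0.121 to 0.558 CPM. Enpp2 is far lower than Ttr per length in both libraries, at 326.0 and 358.8 TPM.

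The 37 genes thus differ in how much of their signal the other 8 libraries share. The smaller ratio to the highest of the other 8 was at least 10 in 8 genes, from 5 to 10 in 9, from 3 to 5 in 10 and from 2 to 3 in 9, and it has no value for Pon1. In the other 8 libraries, 8 genes had at least 1 CPM in every one and 15 stayed under 1 CPM in every one. Pon1, a paraoxonase best known from liver and serum, had no count in any of the other 8 and measured 1.11 and 1.10 CPM in BT-11 library 3 and untreated library 4. A count of 0 allows up to 3 counts, or 0.219 CPM in the shallowest of the 8. The measured Pon1 levels in both libraries were at least 5.02 times this bound, which leaves out the counting error of their own 16 and 17 counts. Pon3, a relative of Pon1, measured 1.25 and 1.49 CPM, against 0 to 0.321 CPM.

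Some of the further members are better known from other tissues. Mfrp, a frizzled-related membrane protein studied in the retinal pigment epithelium, measured 47.3 CPM in BT-11 library 3 and 49.2 CPM in untreated library 4, against 0.242 to 6.92 CPM. Abca4, the retinoid flippase of photoreceptors, measured 3.67 and 5.23 CPM, against 0.309 to 0.964 CPM. Glycam1, a mucin-like ligand of L-selectin, measured 3.53 and 3.36 CPM, against 0 to 0.268 CPM. Cltrn, the kidney protein collectrin, measured 2.7 and 2.20 CPM, against 0 to 0.219 CPM. Tmem72, a membrane protein of unclear role that is among the choroid plexus markers counted above, measured 10.9 and 23.6 CPM, against 0.0604 to 1.89 CPM. The remaining low members, each under 8 CPM in every library, were Pla2g5, C1qtnf3, Steap1, Itgb6, Bhmt2, Scgb1c1, Thbs2 and Rab11fip1.

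The genes nearest the threshold were Rab11fip1, a regulator of recycling endosomes, Thbs2, a matrix glycoprotein, and Scgb1c1, a secretoglobin, with smaller ratios of 2.17, 2.22 and 2.24. Just outside lay Fgf1, Sfrp1 and Ccdc40, at 1.98, 1.95 and 1.93. Symbols at least 2 times above all other libraries, the other high library included, numbered 2 for BT-11 library 3 and 4 for untreated library 4. The members Tmem72 (23.6 against 10.9 CPM in BT-11 library 3) and Prlr (10.7 against 5.05 CPM) meet this in untreated library 4.

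A pair of transcription factors that specify this tissue were in the group at low levels. Otx2, the homeobox factor of choroid plexus and forebrain, measured 6.16 CPM in BT-11 library 3 and 5.88 CPM in untreated library 4, while the remaining 8 ran from 0 to 1.67 CPM, with BT-11 library 1 highest among these. Lmx1a, a LIM homeobox factor of the roof plate from which choroid plexus arises, measured 2.42 and 1.74 CPM, against 0 to 0.660 CPM. The core sequences that such factors are known to bind were looked for on both strands of RefSeq promoters (assembly GRCr8, 250 bases before to 50 after each start), which matched 27 of the 37 genes. TAATCC, the OTX core, lay in 5 of the 27 (18.5%), against 7.11% of all 27457 promoters. TAATTA, the core of LIM homeobox sites, lay in 3 (11.1%), against 5.35% of all. These are matches of letters and show no binding. The windows of 4 genes with a match are printed up to the first annotated base of the gene, with the matches in capitals (GGATTA is TAATCC on the other strand), to show how the cores lie in genes that share a pattern of levels.
Ace: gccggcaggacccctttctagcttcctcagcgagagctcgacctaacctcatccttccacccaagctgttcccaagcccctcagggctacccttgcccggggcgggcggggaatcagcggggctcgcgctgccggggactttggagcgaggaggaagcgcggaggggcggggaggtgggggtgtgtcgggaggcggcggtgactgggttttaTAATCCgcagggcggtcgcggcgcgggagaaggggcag
Cltrn: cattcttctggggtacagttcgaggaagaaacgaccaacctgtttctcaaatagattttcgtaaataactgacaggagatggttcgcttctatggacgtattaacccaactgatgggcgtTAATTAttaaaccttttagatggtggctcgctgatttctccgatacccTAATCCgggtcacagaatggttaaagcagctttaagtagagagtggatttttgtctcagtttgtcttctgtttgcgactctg
Abca4: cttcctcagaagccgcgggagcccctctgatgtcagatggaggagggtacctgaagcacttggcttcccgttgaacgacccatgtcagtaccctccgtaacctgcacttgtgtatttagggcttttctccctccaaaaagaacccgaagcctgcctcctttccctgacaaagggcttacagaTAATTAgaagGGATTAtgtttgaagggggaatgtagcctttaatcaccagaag
Mfrp: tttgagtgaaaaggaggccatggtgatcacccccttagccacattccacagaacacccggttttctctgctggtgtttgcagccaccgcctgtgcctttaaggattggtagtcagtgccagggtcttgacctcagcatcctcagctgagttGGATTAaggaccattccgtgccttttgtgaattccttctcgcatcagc
The Ace window lies at chr10:91409879-91410128 on the plus strand and the Cltrn window at chrX:34027125-34027374 on the minus strand. The Abca4 window lies at chr2:212849235-212849469 and the Mfrp window at chr8:53342284-53342482, both on the plus strand. Counted back from the first annotated base of the gene, the TAATCC match begins at 38 bases in Ace, 82 in Cltrn, 43 in Abca4 and 48 in Mfrp. TAATTA begins at 130 bases in Cltrn and 53 in Abca4. The fifth promoter with TAATCC belongs to Pla2g5, a secreted phospholipase, which also holds TAATTA.

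The levels in BT-11 library 3 and untreated library 4 were close to each other but not equal. The ratio of BT-11 library 3 over untreated library 4 had a median of 0.844 over the 37 genes, with 11 genes higher in BT-11 library 3 and 26 lower there. Over the 11534 symbols with at least 1 CPM in both libraries the median was 1.07 and 32.4% were lower in BT-11 library 3. With 1 library on each side this compares 2 animals and not the treatments, and the exact 95% intervals that follow cover counting error only. The interval left out 1 for 10 genes, of which 9 were lower in BT-11 library 3 and Ttr was higher, against 9.18% of those 11534 symbols lower and 30.5% higher. The same values took part in choosing the genes, so nothing is read from these counts. Among genes with at least 5 CPM in both, the ratio was lowest for Tmem72, at 0.464 (0.382 to 0.560), and Prlr, at 0.474 (0.355 to 0.628). Next came F5 at 0.658 (0.584 to 0.741) and Kl at 0.687 (0.622 to 0.759). It was highest for Ttr, at 1.20 (1.18 to 1.23), followed by Igfbp2 at 1.06 (0.955 to 1.18), Igf2 at 1.05 (0.990 to 1.12) and Otx2 at 1.05 (0.773 to 1.42).

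**Figure D2:**
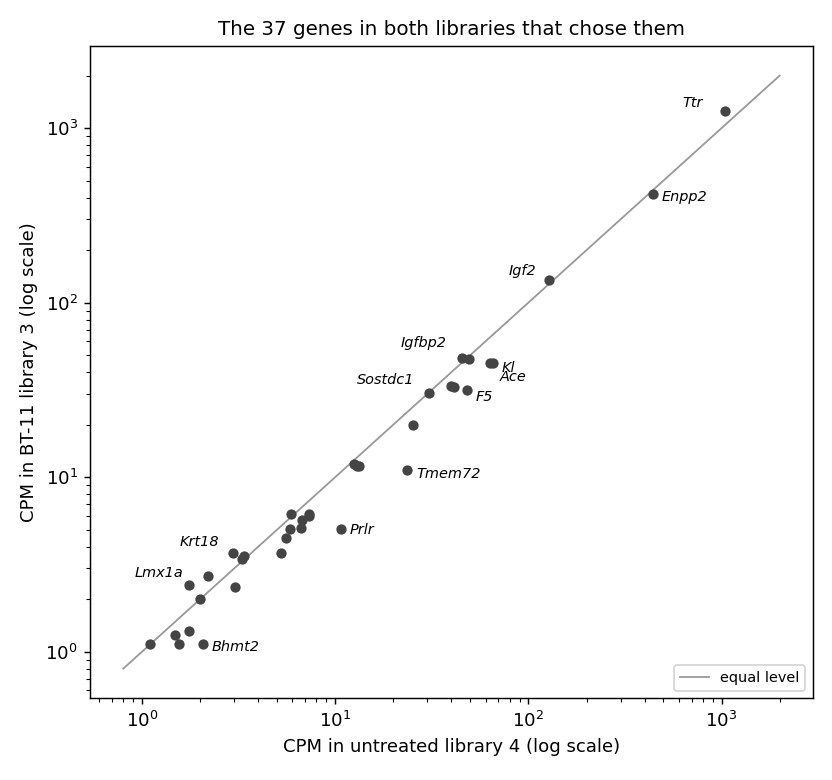
CPM of each of the 37 genes in BT-11 library 3 (vertical axis) against untreated library 4 (horizontal axis), both on log scales, with the line of equal levels. Ttr lies above the line at 1260 against 1048 CPM, while Tmem72 and Prlr lie furthest below it, at ratios of 0.464 and 0.474.

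Levels were also set relative to Ttr. Per 100 reads of Ttr there were 2.42 reads of Sostdc1 in BT-11 library 3, 2.91 in untreated library 4 and 1.88 in untreated library 3, the highest of the other 8 for Ttr. Cldn2 had 2.62, 3.93 and 3.48 reads per 100 of Ttr in these libraries, and Kl had 3.57, 6.25 and 4.02. Enpp2 had 33.2, 41.9 and 165.6, and Igf2 had 10.7, 12.1 and 40.0. Mfrp had 3.76, 4.69 and 8.48, Clic6 had 2.66, 3.81 and 5.98, and Aqp1 had 0.92, 1.24 and 2.32. The proportion in untreated library 3 lay between those of both high libraries for Cldn2 and Kl, below both for Sostdc1, and above both for Mfrp, Clic6, Aqp1, Enpp2 and Igf2. Such proportions cannot be read in BT-11 libraries 4 and 5, where Ttr itself was at 1.85 and 1.63 CPM.

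**Figure D3:**
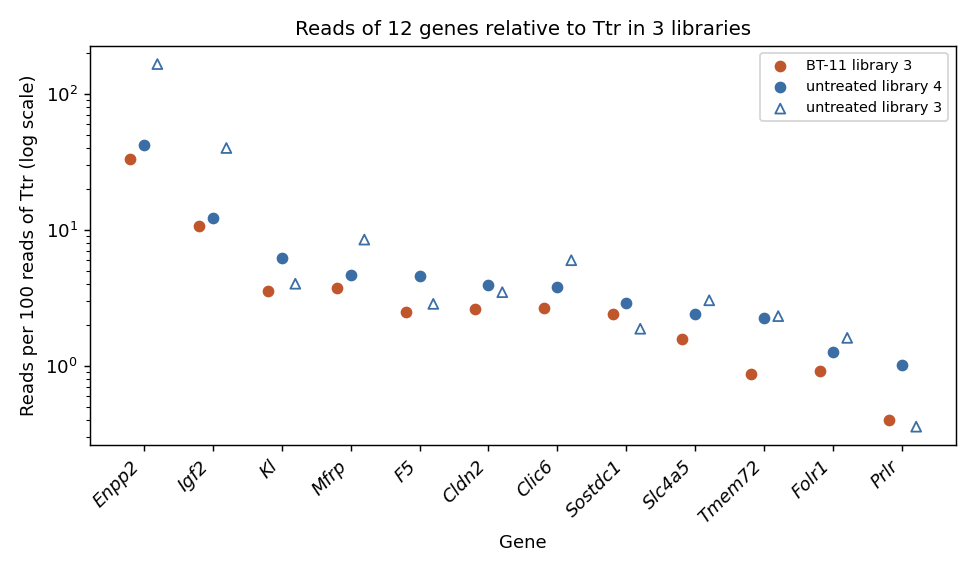
Reads of 12 genes per 100 reads of Ttr (log scale) in BT-11 library 3, untreated library 4 and untreated library 3, which was the highest of the other 8 libraries for Ttr. Sostdc1 lies between 1.88 and 2.91 in all 3, while Enpp2 lies at 33.2 and 41.9 in BT-11 library 3 and untreated library 4 and at 165.6 in untreated library 3.

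Genes that the rule did not take were read through 14 lists of cell types and pathways. Of symbols with at least 1 CPM in both libraries, 461 of 11534 (4.0%) lay above the highest of the other 8 in both, whatever the size. In the list of choroid plexus identity and secreted products 26 of 36 did, 19 of them members, and the median level was 3.61 times the median of the other 8 in BT-11 library 3 and 4.11 times in untreated library 4. Over all symbols those medians were 1.07 and 0.996. Htr2c, the serotonin receptor that choroid epithelium shares with neurons, was no member, at 81.1 and 108.4 CPM in BT-11 library 3 and untreated library 4 against 14.6 to 55.9 CPM. In the transport list 10 of 28 lay above in both, 5 of them members, with medians of 1.25 and 1.18 times. The list of growth factors, hormones and receptors had 11 of 24 above in both (7 members), that of junctions and keratins 5 of 18 (4 members), and that of Wnt and BMP modulators 6 of 15 (1 member). Retinoid and thyroid hormone carriage had 2 of 10 (Ttr the 1 member), thalamus and habenula 1 of 9, and tanycytes, subcommissural organ and pineal 1 of 2, both without a member.

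The list of motile cilia and ependyma held no member, yet 18 of its 35 genes with at least 1 CPM lay above the highest of the other 8 in both libraries. The median level was 1.94 times the median of the other 8 in BT-11 library 3 and 1.69 times in untreated library 4. Foxj1, the master factor of motile cilia, measured 8.65 and 11.3 CPM in BT-11 library 3 and untreated library 4, against 2.90 to 5.46 CPM. Ccdc40, needed to assemble the ciliary axoneme, measured 6.23 and 6.07 CPM, against 0.618 to 3.15 CPM. Tmem212, a marker of ependyma, measured 1.11 and 1.29 CPM, against 0 to 0.826 CPM.

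Of listed genes with at least 1 CPM in both libraries, no vessel or immune gene lay above the other 8 in both. Of the list of leptomeninges and fibroblasts, which holds no collagens or laminins, 2 of 26 genes (7.69%) did, against 4.0% of all symbols. These were Lum and Ogn, small matrix proteoglycans, with Ogn at 9.41 and 9.62 CPM against 2.93 to 4.88 CPM. The 6 markers of leptomeninges and fibroblasts summed to 39.6 CPM in BT-11 library 3 and 37.8 CPM in untreated library 4, above the 15.3 to 33.3 CPM of the other 8. In the list of blood vessels 0 of 18 genes did, and in the list of macrophages and antigen presentation 0 of 8. The vessel median was 1.12 times the median of the other 8 in BT-11 library 3 and 0.836 times in untreated library 4. Hippocampal neuron genes (0 of 11 above) and astrocyte and myelin genes (0 of 12) had medians between 0.939 and 1.07 times in both libraries.

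**Figure D4:**
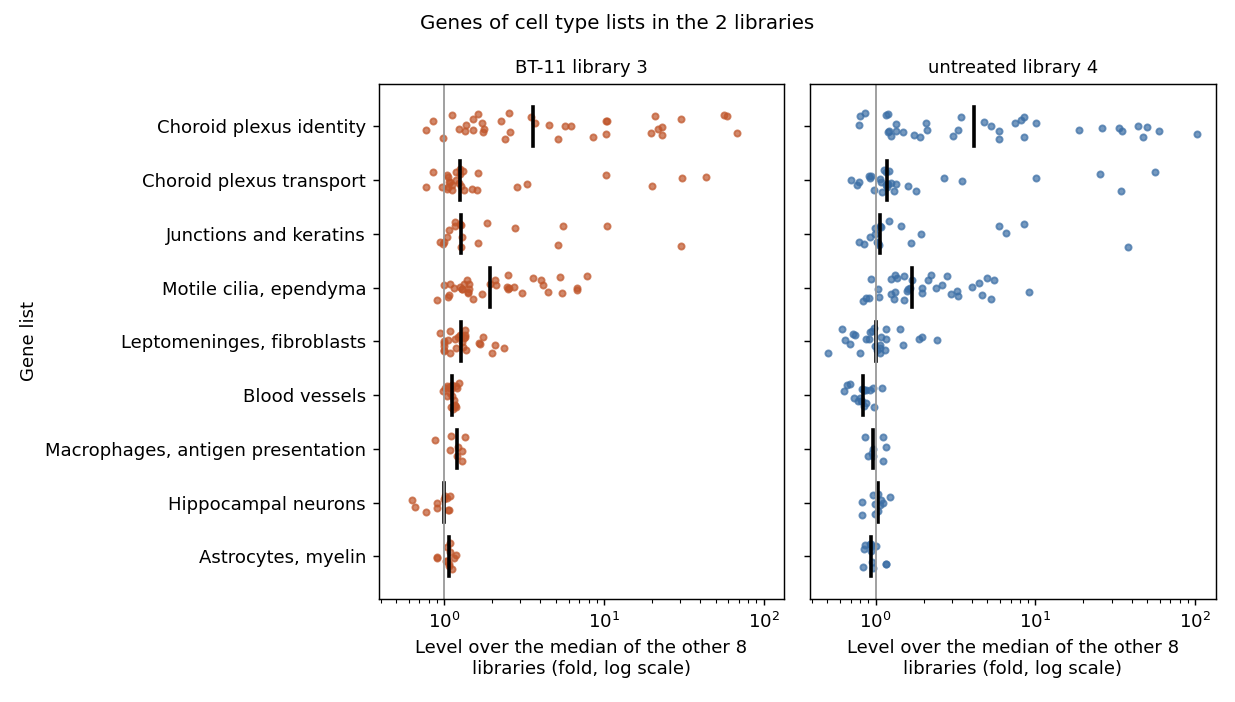
Level of each listed gene with at least 1 CPM in both libraries, divided by its median over the other 8 libraries (fold, log scale), in BT-11 library 3 (left) and untreated library 4 (right), by gene list, with the list median as a black bar. The choroid plexus identity list has medians of 3.61 and 4.11, the motile cilia list 1.94 and 1.69, and the vessel list 1.12 and 0.836.

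The study compared BT-11 with untreated rats, and 1 of both high libraries lies in each group. With all 10 libraries, 0 of 12000 genes passed an adjusted p of 0.05 in edgeR's quasi-likelihood test (0%), and 715 (5.96%) had an unadjusted p under 0.05, 411 of them (3.42%) with lower levels under BT-11. Of the 37 genes 21 entered that fit, 0 passed and 0 had an unadjusted p under 0.05. Ttr had a log2 fold change of -0.02 ± 1.56 (SE, BT-11 over untreated, adjusted p = 0.998 in edgeR's test). The median log2 fold change of the 21 was -0.40, and it was -1.75 when BT-11 library 3 was left out and 0.79 when untreated library 4 was. The Ttr value likewise rests on both libraries, being 2.36 without untreated library 4 and -5.29 without BT-11 library 3.

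The 8 other libraries, 4 with BT-11 and 4 untreated, give the comparison that the choice of genes touches least, and in them most of the group lay lower with BT-11 without any gene passing edgeR's test. Over all 37 genes the mean CPM of the 4 BT-11 libraries was lower than that of the 4 untreated libraries in 30 and higher in 6, and Pon1 had no counts. Over all symbols the BT-11 mean was lower in 58.1%. In 9 of the 37 genes (24.3%) all 4 BT-11 libraries lay below all 4 untreated ones, against 3.90% of all symbols, and in 0 genes of the group they lay above, against 1.51% of all symbols. Among genes that passed the filter on low counts the share lying wholly below was 3.99%. The 9 were Ttr, Enpp2, Kl, F5, Sostdc1, Mfrp, Slc4a5, Pla2g5 and Glycam1. In 3 of them the nearest libraries of both groups had the same count and differed only by depth, namely Pla2g5 at 14 counts, Sostdc1 at 8 and Glycam1 at 1. In a fit without a filter on low counts, 29 of 36 genes of the group had a fold change below 1 and the median log2 fold change was -0.55, against 52.0% of all genes and a median of -0.0092. The genes come from the same 8 rats and many are markers of the same tissue, so they are not independent replicates of the treatment. The highest CPM of these 8 libraries also entered the rule. These counts and shares are therefore a description and not a test.

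In this 8-library fit 17 of the 37 genes passed the filter on low counts, and 6 of these reached its level of 0.627 CPM in all 4 untreated libraries but not in all 4 BT-11 libraries, so that their passing leans on the untreated side. None of the 17 passed when adjusted over the 11983 genes tested, of which 0 passed (0%), while 1435 genes (12%) and 8 of the group had an unadjusted p under 0.05. All 8 were lower with BT-11, but 5 of them reached the filter's level in all 4 untreated libraries and not in all 4 BT-11 libraries, and only Enpp2, Ttr and Ace reached it in all 8. At that p 6.15% of the genes tested were lower with BT-11, and 51.3% of the genes tested had a fold change below 1. Ttr averaged 6.27 ± 6.86 CPM with BT-11 and 47.4 ± 24.0 CPM in untreated rats (SD, n = 4 each), a log2 fold change of -2.88 ± 0.597 (SE, edgeR, adjusted p = 0.216). The values were 1.63 to 16.2 CPM with BT-11 and 28.4 to 81.6 CPM in untreated rats, so the groups do not overlap. Enpp2 averaged 78.2 ± 8.37 CPM with BT-11 and 118.2 ± 16.7 CPM in untreated rats (SD, n = 4 each), a log2 fold change of -0.57 ± 0.110 (SE, edgeR, adjusted p = 0.216). Mfrp averaged 0.567 ± 0.306 CPM with BT-11 and 3.25 ± 2.47 CPM in untreated rats (SD, n = 4 each), a log2 fold change of -2.44 ± 0.540 (SE, edgeR, adjusted p = 0.232).

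Kl, at 0.871 ± 0.715 CPM with BT-11 and 2.48 ± 0.595 CPM in untreated rats, and Slc4a5, at 0.736 ± 0.118 and 1.6 ± 0.623 CPM in that order (SD, n = 4 each), had log2 fold changes of -1.47 ± 0.427 and -1.07 ± 0.311 (SE, edgeR, adjusted p = 0.347 for both). Ace, Pla2g5 and Cldn2 had log2 fold changes of -0.32, -0.61 and -1.35 (edgeR, adjusted p = 0.375, 0.41 and 0.414). Leaving out BT-11 library 1 moved the log2 fold change of Ttr to -3.99, of Kl to -2.22 and of Cldn2 to -2.54, and leaving out untreated library 3 moved that of Mfrp to -1.81. Krt8 was the only tested gene of the group with a fold change above 1, at a log2 fold change of 0.07 ± 0.478 (SE, edgeR, adjusted p = 0.961), and its direction turned when BT-11 library 1 (-0.49), untreated library 2 (-0.15) or untreated library 3 (-0.02) was left out. Igfbp2 did not differ beyond its spread, at 13.5 ± 1.36 CPM with BT-11 and 13.9 ± 1.24 CPM in untreated rats (SD, n = 4 each; edgeR, adjusted p = 0.974). DESeq2 on the same counts called 84 of 11983 genes (0.701%), among them Enpp2 (adjusted p = 0.00277) and Mfrp (adjusted p = 0.00326). Ttr was not called by DESeq2 (adjusted p = 0.0543). Mfrp reached the filter's level in all 4 untreated libraries but not in all 4 BT-11 libraries, so its entry leans on the untreated side.

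Summed levels of 4 of the 14 lists did not overlap between the 4 BT-11 and the 4 untreated libraries, and those of 10 did. One of the 4 is the choroid plexus identity list, which holds 19 of the 37 genes, Ttr and Enpp2 among them. The astrocyte and myelin list summed to 10664 to 13514.5 CPM in the 4 BT-11 libraries and 13800 to 21326 CPM in the 4 untreated libraries. The hippocampal neuron list summed to 6958 to 7958 CPM with BT-11 and 5216 to 6897 CPM in untreated rats, and the thalamus and habenula list to 77.6 to 96.4 CPM and 97.0 to 104.3 CPM in that order. The gaps between the neuron ranges and between the thalamus and habenula ranges are narrow, and the part of these lists in the lower levels of the group was not tested. Stroma overlapped, at 467.9 to 605.2 CPM with BT-11 and 580.6 to 750.4 CPM in untreated rats, as did vessels, at 391.4 to 603.7 and 454.7 to 688.2 CPM in that order. The motile cilia list also overlapped, at 159.1 to 198.3 CPM with BT-11 and 170.1 to 186.2 CPM in untreated rats.

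**Figure D5:**
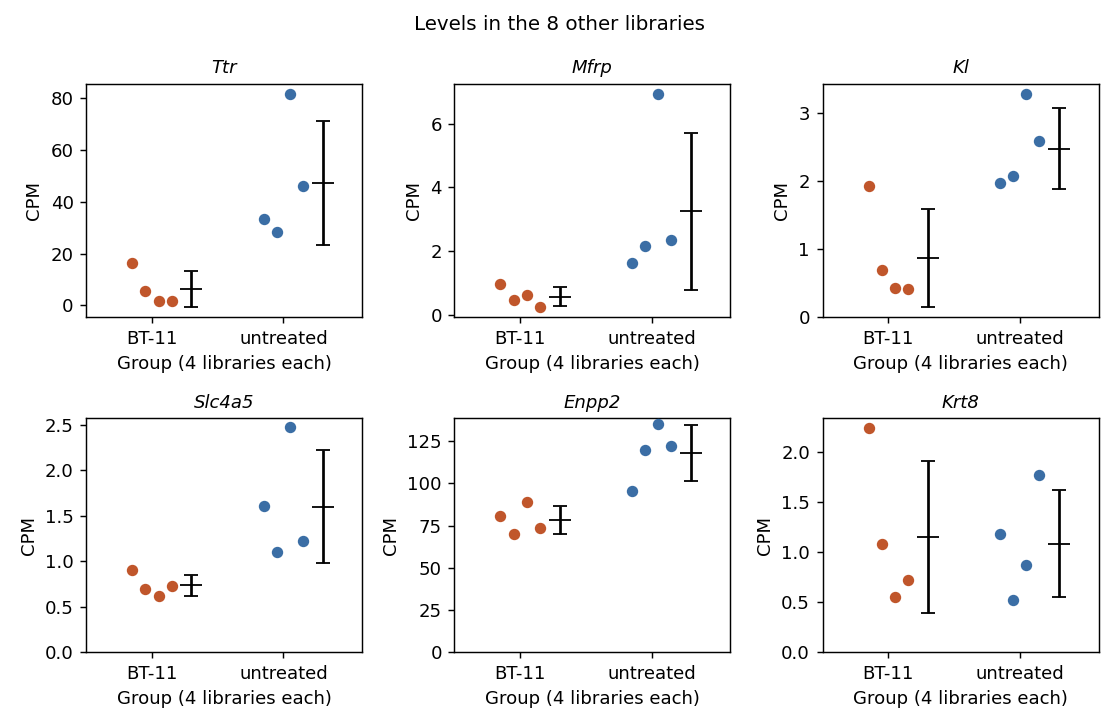
CPM of 6 genes in the 8 libraries other than BT-11 library 3 and untreated library 4 (points, 4 BT-11 at left and 4 untreated at right of each panel), with the group mean and SD as bars. All 4 BT-11 points lie below all 4 untreated points for Ttr, Mfrp, Kl, Slc4a5 and Enpp2, and the groups overlap for Krt8.

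Within the untreated libraries other than library 4, library 3 was the highest for much of the group. Of the 37 genes, 18 had their highest value among the other 8 libraries in untreated library 3, against 7 in BT-11 library 1, 5 in untreated library 5 and 3 in BT-11 library 4. BT-11 library 4 or 5 was lowest, ties included, in 24. How often this holds over all symbols was not computed. Untreated library 3 was also the highest of the other 8 for the summed astrocyte and myelin, stroma and vessel lists, though not for every list. Without Ttr the summed level of the group ran from 126.4 to 153.9 CPM in BT-11 libraries 1, 2, 4 and 5 and from 170.1 to 242.6 CPM in untreated libraries 1, 2, 3 and 5. Enpp2 alone gave 69.9 to 88.9 CPM of this with BT-11 and 95.3 to 135.2 CPM in the untreated libraries. Whether the summed levels stay apart without Enpp2 was not tested.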

How the data were processed

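The authors deposited expected counts, made by assigning each library's reads to transcript rows without normalization, of which 85.4% were whole within 1e-6 as deposited. They also deposited a second table of normalized signal. Comparison of both showed that the deposited signal is each library's counts times 1 factor (0.822 to 1.15, largest relative deviation 9e-06). The transcript length column, deposited by the authors, is in bases. The tools listed in the submitters' processing notes are STAR 2.7.9a, bcl2fastq 2.19.1.403, DESeq2 and Partek, with build rn6. Which of them counted reads, with what annotation and strand setting, no source used here says. Libraries were strand-specific, made with a KAPA mRNA kit, per the labels' protocols. The design text calls the rats male in 1 place and female elsewhere, as do all sample labels.

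The 14806 rows were summed by symbol (13670 symbols, 785 with more than 1 row, among them 4 of the 37 genes). CPM used the column total. For tests, counts were rounded, filtered by filterByExpr, scaled by TMM and fitted with edgeR 4.0.16 (quasi-likelihood, two-sided, Benjamini-Hochberg over all genes tested, threshold 0.05) in R 4.3.3. Each SE is the log2 fold change over the square root of its F. The fit was run on all 10 libraries and on the 8 other than BT-11 library 3 and untreated library 4. Alternatives were DESeq2 1.42.0, limma voom 3.58.1, upper-quartile scaling, no filter, a replicate block, each library left out and other settings of the rule. The design assumed counts per symbol, and the expected counts were rounded for it. The procedure was tested on simulated data. Figures used matplotlib 3.10.9 and Python 3.11.15.

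Each library is 1 rat, so p-values weigh group differences against the variation between these animals, which edgeR estimates with information shared across genes. The replicate numbers of both groups were taken to name animals only. The genes named followed a rule (known choroid plexus markers, the largest ratios, the leading members of each list, the extremes of the ratio between both libraries, the smallest p-values in the 8-library fit and the genes nearest the threshold), with some further members added after their values were seen. The members, the 14 lists and the rule were chosen with earlier results of these data known. Lists are described by counts and medians.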

Additional observations from a re-analysis of the deposited data

Results flagged for a closer look

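The summed level of the 37 genes had a library far from the others of its group in both groups, BT-11 library 3 at 2270 CPM and untreated library 4 at 2170 CPM, as the rule requires. By gene, a library stood apart in the group of 5 for 33 genes with BT-11 and for 36 genes in untreated rats, and it was the high library each time.

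Flagging a library as far from the others happens in about 5% of groups by chance. The share over all symbols was not computed, so no excess is read here. Among the 4 remaining libraries of a group, 10 of 74 gene and group pairs had a library far from the others. With BT-11 it was library 1 each time: Clic6 at 4.75 CPM, Cldn2 at 1.93 CPM, Otx2 at 1.67 CPM, Bhmt2 at 0.449 CPM, and Glycam1 and Cltrn at 0.0642 CPM, which is 1 count. In untreated rats it was library 3 for Igf2 at 32.6 CPM, Mfrp at 6.92 CPM and Otx2 at 1.24 CPM, and library 1 for Trpv4 at 0.536 CPM.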

How the results depend on the processing

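The rule gave 57 genes at 1.5 times, and 28 to 41 at 3 times, at other CPM minima, with TMM scaling, on single rows, on the deposited normalized table or with the prefixes kept. With 10 libraries DESeq2 called 12 of the 6181 genes to which it gave an adjusted p, against 0 in edgeR. Ttr was given no p-value there, so DESeq2's 0 calls in the group are not read as a result. In edgeR the Ttr log2 fold change ranged from -5.29 to 2.36 with 1 library left out. With 8 libraries the number of genes called was 84 with DESeq2, 2 of them in the group, and 0 to 88 with 1 library left out, 88 without untreated replicate 5, but 0 of the group each time. The median log2 fold change of the group's tested genes ranged from -0.81 without BT-11 replicate 1 to -0.35 without untreated replicate 3, and every alternative run kept it below 0. Enpp2 was at -0.56 and Mfrp at -2.47 with DESeq2, where both passed, although the entry of Mfrp into the fit leans on the untreated libraries. Krt8 was at -0.019 with limma voom and from -0.49 to 0.44 with 1 library left out. The shared replicate numbers showed no pairing of the animals in these values (correlation of deviations from -0.35 to 0.12 over 5 pairs, none best with its own number). With the replicate block 0 genes were called in either fit, the 8-library median was -0.46, and the block changed no call. Genes with a few counts per library, such as Pon1, are limited by depth.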
